A study of Mus musculus with 4 samples.

Results

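The cytosolic ribosome of a mammalian cell is built from a large 60S and a small 40S subunit, each a core of ribosomal RNA covered by ribosomal proteins. Each of these proteins is made from its own gene, and the messages of nearly all of them begin with a 5′ terminal oligopyrimidine (TOP) tract, a C followed by a run of C and T, through which their translation is set by growth signals. T cells that are activated and begin to grow make more ribosomes.

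The genes described here are the ribosomal protein genes of the cytosolic ribosome, chosen by symbol: Rpl or Rps followed by a number and at most 1 of the letters a, x, l, y and z, plus Rplp0, Rplp1, Rplp2 and Rpsa, with at least 40 counts summed over 4 libraries. Of 24061 gene rows in the deposited count table, 81 had such a symbol and 76 reached the minimum, by symbol 44 of the 60S and 32 of the 40S subunit. Rps4l, counted with the 40S genes, is annotated as a transcribed processed pseudogene. All 76 also passed the filter on low counts that left 13022 genes for testing. The 5 rows below the minimum were Rpl10l, Rpl26 and Rpl3l with 0 counts, Rpl39l with 10 and Rpl30 with 14. Just above it lay Rps27 with 132 counts, Rps4l with 257, Rpl34 with 269 and then Rps21 with 1443. Ribosomal protein genes have many near-identical pseudogenes, and between 20.8% and 21.4% of a library's column total was set aside by the counter as reads placed at more than 1 site. The level of any single member is therefore uncertain where its reads also match a copy.

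RNA was sequenced from effector regulatory T cells, which restrain immune responses, sorted as CD4+, FoxP3+ and CD62L- from mouse Peyer's patches, the lymphoid follicles of the small intestine. All mice were 13 weeks old, on C57BL/6 at backcross generation 5, and carried the FoxP3-YFP-cre allele, which expresses Cre under the control of Foxp3 and so in regulatory T cells. Of the 4 libraries, 2 are labelled as wild type (Maf+/+, wt 1 and wt 2) and 2 as Maf flox/flox (flox 1 and flox 2), from about 40000 sorted cells each. Nothing in the labels ties the libraries of a group to separate mice. The p-values then measure only the spread between these samples, which may be technical.

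Maf, the transcription factor gene that the floxed allele targets, went against 2 labels. Its counts were 3071 for wt 1, 2975 for flox 1, 40 for wt 2 and 15 for flox 2. Both libraries numbered 1 were thus high in Maf and both numbered 2 were low, whichever genotype they carry in their labels. The main comparison is therefore of the libraries numbered 2 with those numbered 1, the comparison by genotype label follows it, and libraries are called by their labels throughout. The sample codes in the labels' description field also put both libraries numbered 1 before both numbered 2, so Maf level, replicate number and place in those codes cannot be told apart. The counts on genes summed to between 19368745 (wt 2) and 24687897 (flox 1) per library.

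Members that carry a TOP tract at an annotated start are shown first, because the tract is the sequence feature the family shares. The start sites are those of RefSeq on GRCm38.p6, and 56 of the 76 members had an entry. A tract was counted where the first base of the message was C and at least 4 further C or T followed without a break, on the gene's own strand. By that rule 13 of 56 members (23.2%) had a tract at an annotated start, against 3.01% of all 27025 genes with an entry. With the start allowed to lie up to 5 bases to either side, the shares were 50% of members and 21.2% of all genes. Each line gives 30 bases before and 20 after the annotated start, 5′ to 3′, with the tract in capitals. They include members with large and with small differences between libraries, and Rps23, the member with the lowest p. Rps23 has no tract at this start, but has one of 6 bases when the start may lie up to 5 bases away.
Rpl38: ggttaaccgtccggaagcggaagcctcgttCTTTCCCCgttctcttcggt
Rps15a: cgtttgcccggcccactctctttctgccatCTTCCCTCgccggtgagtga
Rps18: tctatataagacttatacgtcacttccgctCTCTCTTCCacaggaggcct
Rps6: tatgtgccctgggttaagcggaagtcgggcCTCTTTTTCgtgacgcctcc
Rpl15: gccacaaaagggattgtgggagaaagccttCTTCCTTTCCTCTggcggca
Rps23: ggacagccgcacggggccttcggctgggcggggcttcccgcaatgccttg

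These windows lie on GRCm38.p6 at chr11:114668550-114668599 (plus strand, Rpl38), chr7:118116128-118116177 (minus, Rps15a), chr17:33955646-33955695 (minus, Rps18), chr4:86857348-86857397 (minus, Rps6), chr14:18270967-18271016 (minus, Rpl15) and chr13:90923092-90923141 (plus, Rps23). Each spans the promoter end and the first bases of exon 1. The match is a description of these letters at the annotated start and says nothing about where transcription began in these cells.

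Together the 76 genes took 1.13% of gene counts for wt 1, 1.20% for flox 1, 1.42% for wt 2 and 1.44% for flox 2. Both libraries numbered 2 lay above both numbered 1. Each library lay nearer to the other of its own number than to either of the other number. The exact binomial 95% intervals, which cover counting error only, were 1.1303% to 1.1394%, 1.1963% to 1.2049%, 1.4108% to 1.4213% and 1.4347% to 1.4449% in the same order. The mean share was 1.168% ± 0.0465 (SD, n = 2) in the libraries numbered 1 and 1.428% ± 0.0168 (SD, n = 2) in those numbered 2. No test of the share was run, since with 2 libraries a group the smallest two-sided p of an exact permutation test is 0.333. In bulk RNA, more of a cell type that is rich in these messages and more of the messages per cell cannot be told apart. The plot of counts by subunit shows both subunits with the same order of libraries.

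**Figure D1:**
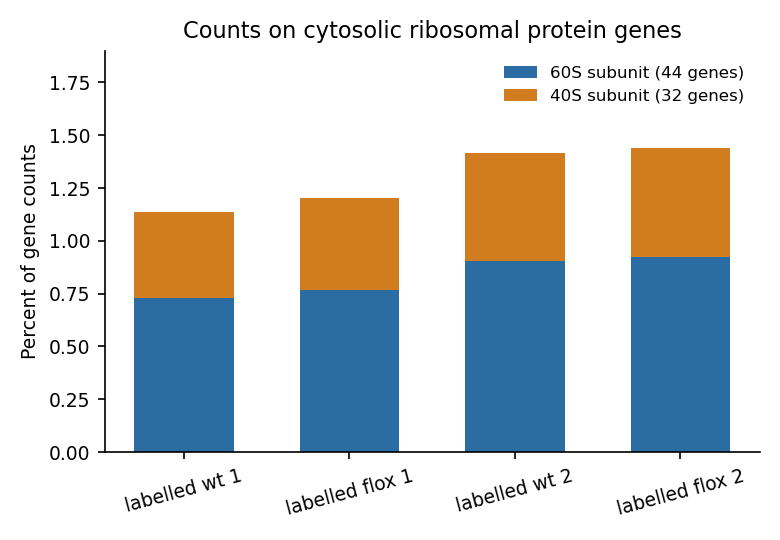
Percent of each library's gene counts on the 44 60S and 32 40S ribosomal protein genes, stacked, with the libraries in order of the total. The libraries numbered 1 reach 1.13% and 1.20% and those numbered 2 reach 1.42% and 1.44%.

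No single member passed the test between the libraries numbered 2 and 1. In edgeR's quasi-likelihood test with Benjamini-Hochberg adjustment over 13022 genes, 0 of 76 members were called at an adjusted p under 0.05, against 236 genes (1.81%) in all, of which 52 (0.399%) were higher and 184 (1.41%) lower in the libraries numbered 2. At an unadjusted p under 0.05, 43 members were higher and 0 lower, against 5.45% and 8.12% of all genes tested. The median log2 fold change of the members was 0.26, a fold of 1.19, against 0.01 over all genes tested. Of the 76, 73 had a log2 fold change above 0, against 51.3% of all genes. In 67 members (88.2%) both libraries numbered 2 lay above both numbered 1, against 22.7% of all genes, and in 2 (Rpl34 and Rps4l) they lay below, against 22.5%. DESeq2 called 3 members (Rps18 and Rps23 among them), with 640 genes (4.91% of 13022) called in all. Without a filter on low counts edgeR called 5 (Rpl32, Rps15a, Rps18, Rps19 and Rps23), with 589 genes (3.17% of 18575) in all.

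The differences were small and mostly of one sign. In the well-counted members, those with a mean of at least 300 counts per library, the log2 fold change ran from 0.09 to 0.56, and all 73 were above 0. This minimum was chosen after the values were seen. The 3 members under it were Rps27, Rps4l and Rpl34, the only members with a log2 fold change below 0. The median log2 fold change was 0.25 for the 60S and 0.26 for the 40S genes.

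The ordering went further than the split by number. In 54 members (71.1%) the libraries ranked wt 1, flox 1, wt 2 and flox 2 from low to high, an order that 6.07% of all genes tested showed. The library labelled wt 1 was the lowest in 59 members and flox 2 the highest in 69, against 24.6% and 26.1% of all genes.

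Each label holds 1 library of either number, and the pair within one label shares no library with the pair within the other. The median log2 ratio of wt 2 to wt 1 over the members was 0.26 and that of flox 2 to flox 1 was 0.29. Both ratios were above 0 in 71 members (93.4%), against 30.2% of all genes tested. Across the 76 members the 2 ratios correlated with Pearson's r = 0.46 and Spearman's rho = 0.56, a description over genes that share their libraries and differ in depth and length.

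**Figure D2:**
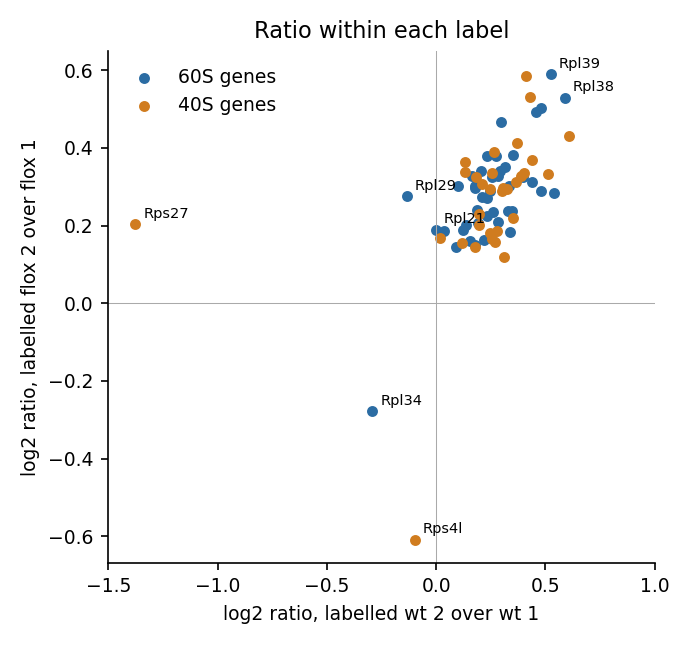
Each point is 1 ribosomal protein gene, with the log2 ratio of the library labelled wt 2 to wt 1 on the horizontal axis and of flox 2 to flox 1 on the vertical axis. Of 76 points, 71 lie in the upper right part, where both ratios are above 0; Rps27, Rps4l, Rpl34, Rpl29 and Rpl21 lie outside it.

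Values below are CPM (counts scaled to a common library total), with library sizes adjusted by edgeR's TMM factors, in the libraries labelled wt 1, flox 1, wt 2 and flox 2 in this order. Among the small 60S proteins, Rpl39 lines the exit tunnel for the growing chain; it was at 21.5, 24.3, 30.9 and 36.5 CPM. Its log2 fold change was the highest of the family, 0.56 (SE 0.15, edgeR adjusted p = 0.167). Rpl38, whose loss in mice alters the pattern of the vertebrae, had 22.3, 28.5, 33.5 and 41.2 CPM and a log2 fold change of 0.55 (SE 0.18, edgeR adjusted p = 0.237). In both, the libraries rank in the same order and the 2 numbers do not overlap.

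The 3 stalk proteins of the 60S subunit, on which elongation factors act, had log2 fold changes of different size, a difference that was not tested. Their coding sequences have 951 nt (Rplp0), 342 nt (Rplp1) and 345 nt (Rplp2). Rplp0, the base of the stalk, had 676, 661, 753 and 739 CPM and a log2 fold change of 0.16 (SE 0.07). Rplp1 had 89.4, 95.5, 111 and 122 CPM, with a log2 fold change of 0.33 (SE 0.09). Rplp2 had 51.6, 56.8, 63.4 and 78.5 CPM, with a log2 fold change of 0.39 (SE 0.13). The edgeR adjusted p-values of the 3 were 0.410, 0.184 and 0.273. In each of them both libraries numbered 2 were above both numbered 1. Of the 3, Rplp0 alone had flox 1 and not wt 1 as the lowest library.

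Rpl5 and Rpl11 form, with the 5S ribosomal RNA, the complex that binds Mdm2 when ribosome assembly fails. Rpl5 had 178, 176, 209 and 205 CPM and a log2 fold change of 0.23 (SE 0.08, edgeR adjusted p = 0.273). Rpl11 had 97.2, 104, 116 and 122 CPM and a log2 fold change of 0.25 (SE 0.09, edgeR adjusted p = 0.293). The 2 genes of the complex had nearly the same log2 fold change. Rpl13a, which has a described role in translational control under interferon, had 226, 241, 270 and 302 CPM and a log2 fold change of 0.29 (SE 0.09). Rpl23a, which sits beside the exit tunnel, had 143, 150, 175 and 188 CPM and a log2 fold change of 0.31 (SE 0.09). For these genes too the libraries numbered 2 lay above those numbered 1.

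On the 40S side, Rps23, a protein of the decoding centre, had the lowest p of the family. It had 57.9, 62.3, 78.1 and 90.0 CPM and a log2 fold change of 0.48 (SE 0.11, edgeR adjusted p = 0.117). Rps18, a protein of the 40S head, had 168, 180, 217 and 239 CPM and a log2 fold change of 0.39 (SE 0.09, edgeR adjusted p = 0.119). Rps19, the gene most often mutated in Diamond-Blackfan anaemia, had 171, 192, 225 and 243 CPM and a log2 fold change of 0.37 (SE 0.10, edgeR adjusted p = 0.157). All 3 ranked the libraries alike, with a gap between the 2 numbers.

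Rps6, the substrate of S6 kinase downstream of mTORC1, had 433, 444, 495 and 511 CPM and a log2 fold change of 0.20 (SE 0.07). Rps3, which lines the entry of the mRNA channel, had 356, 368, 387 and 409 CPM and a log2 fold change of 0.14 (SE 0.08). Rpsa, also known as a laminin receptor, had 478, 443, 485 and 497 CPM and a log2 fold change of 0.09 (SE 0.08). These 3 had among the smaller differences, with edgeR adjusted p-values of 0.315, 0.532 and 0.702, and in Rpsa the library wt 1 came close to wt 2. Rps26, which binds near the mRNA exit, had 30.7, 37.0, 39.5 and 45.9 CPM (log2 fold change 0.33, SE 0.15). Rps27a, made as a fusion with ubiquitin, had 93.8, 105, 120 and 123 CPM (log2 fold change 0.28, SE 0.09).

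Some members have a second gene for a closely related protein. Rps27 had 37 counts in wt 1, 41 in flox 1, 14 in wt 2 and 40 in flox 2, and its log2 fold change of -0.40 (SE 0.64) was the lowest of the family. It turned to 0.16 without the library labelled wt 2. Its paralog Rps27l, a target of p53, had 20.3, 21.1, 22.2 and 27.2 CPM and a log2 fold change of 0.25 (SE 0.16). The Rps27 value thus rests on 1 library and few counts. Rps4x had 154, 159, 174 and 176 CPM and a log2 fold change of 0.16 (SE 0.08), and Rps4l, at 61, 90, 56 and 50 counts, had -0.36 (SE 0.39). Rps4l is annotated as a transcribed processed pseudogene with no coding length, not as a second protein-coding gene. Rpl22 had a log2 fold change of 0.31 (SE 0.15) and its paralog Rpl22l1 one of -0.10 (SE 0.18). Rpl7 had 0.16 (SE 0.08) against 0.01 (SE 0.08) for Rpl7l1, which works in ribosome assembly. Rpl36a and Rpl36al, which encode nearly the same protein, had 0.37 (SE 0.19) and 0.44 (SE 0.14). None of these differences between paralogs was tested.

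Rpl3, Rpl10 and Rpl39 have paralogs known from muscle or testis, and these were at 0 counts for Rpl3l and Rpl10l and at 10 counts in all for Rpl39l. Rpl3 had 541, 547, 618 and 631 CPM, for a log2 fold change of 0.20 (SE 0.07). Rpl10 had 181, 215, 229 and 245 CPM (log2 fold change 0.26, SE 0.11). Rpl21, a gene with many pseudogenes, had 106, 112, 106 and 128 CPM and a log2 fold change of 0.10 (SE 0.11). Here the 2 numbers overlapped, and without the library labelled flox 2 the value was -0.04.

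Levels were compared between genes only per kilobase of coding sequence, taken from GENCODE M21. The mean over the 4 libraries ran from 6.06 CPM per kb for Rps27 to 1652 for Rpl41, with a median of 235. The 8 members with the highest levels included Rpl41 at 1652 CPM per kb, Rpl13 at 1356, Rplp0 at 744, Rpl4 at 670, Rps6 at 630, Rpl32 at 562 and Rps9 at 558. Rpl41 encodes the shortest protein of the ribosome. These levels carry the loss of reads that match copies elsewhere, so their order describes uniquely placed reads only.

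The size of the difference between libraries went with the length of the gene's coding sequence. Across 75 members with an annotated length, the log2 fold change of the libraries numbered 2 over 1 correlated with log2 coding length at Pearson's r = -0.39 and Spearman's rho = -0.66. Over the 73 well-counted members the values were -0.70 and -0.76. For the 10 members of up to 300 nt the median log2 fold change was 0.44, for 25 of 301 to 450 nt 0.33, for 19 of 451 to 600 nt 0.25, for 18 of 601 to 900 nt 0.21, and for 3 of 901 to 1500 nt 0.17. Other genes of the same length classes had medians of 0.14, 0.07, 0.02, 0.02 and 0.00, over 216, 527, 713, 1641 and 3341 genes. In each of the 5 classes the members' median lay above that of the other genes, and the members' median was larger in each shorter class. The other genes' medians did not follow the order of length between 451 and 900 nt. Across all 11711 other genes with a length the relation was weak, with Spearman's rho = -0.09. Within the family, CPM rose with length: the members' median CPM was 29.8, 72.1, 164, 217 and 707 in the 5 classes. These CPM were not divided by length, so they do not compare levels between genes. The log2 fold change correlated with log2 mean CPM at Spearman's rho = -0.33 and Pearson's r = 0.23 over the 76 members. These include the low-count members Rps27, Rps4l and Rpl34, the only ones with a log2 fold change below 0. Over the 73 well-counted members the correlation with CPM was not run, so it cannot be set beside that with length. Whether the gradient follows length or CPM was not tested.

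**Figure D3:**
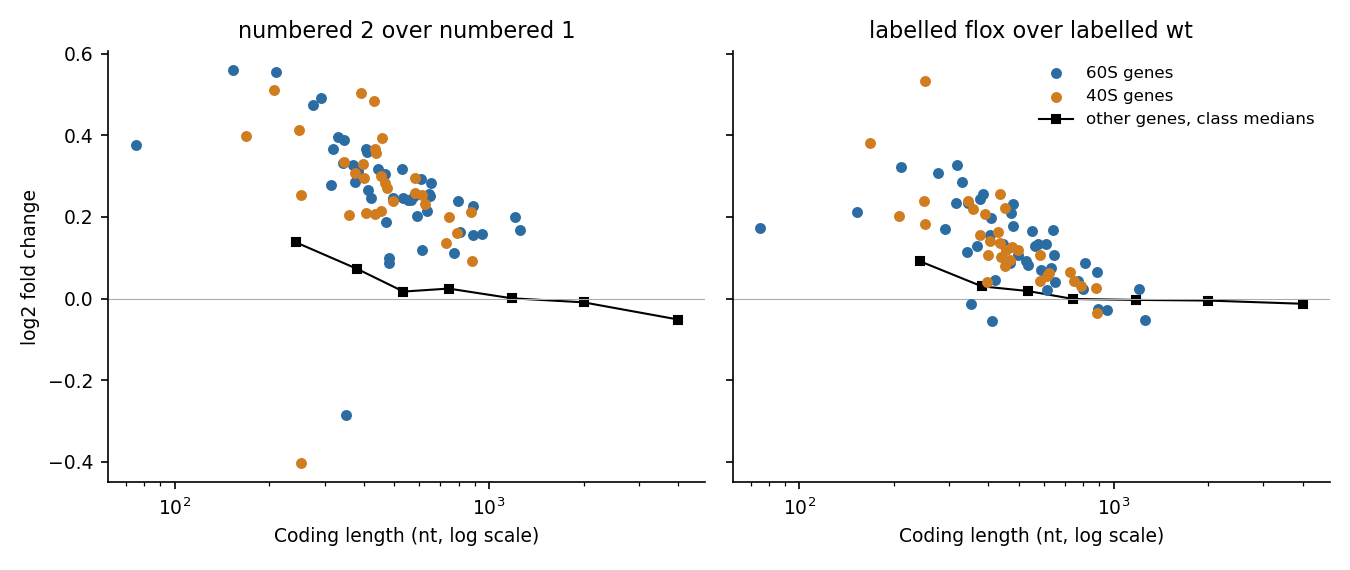
Log2 fold change against coding length (log scale) for ribosomal protein genes of the 60S and 40S subunits, by replicate number on the left and by genotype label on the right. Black squares are the medians of all other tested genes in 7 length classes. Short members have larger values than long ones in both panels.

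Length measured over the whole transcript gave a looser relation within the family and a tighter one outside it. With the median length of the principal coding transcripts, Spearman's rho was -0.35 over the 75 members and -0.12 over the other genes. Some of these transcript models are long for the family: 5130 nt for Rps15a, whose coding sequence has 390 nt, and 3706 nt for Rps20, with 357 nt. When each library's trend with coding length over all genes was removed, the median log2 fold change of the members was 0.22, and with the trend on transcript length it was 0.16, against 0.26 with no correction. In both fits 0 members were called, of 230 and 226 genes. Transcript length was tried first, and coding length was taken up after its results were seen.

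The gradient was present in 5 of the 6 pairs of libraries. The 6 pairs share the same 4 libraries, so they do not count as repeats of each other. Over the 73 well-counted members, Spearman's rho with coding length was -0.675 for wt 2 over wt 1 and -0.656 for flox 2 over flox 1, the pairs of 1 label. It was -0.857 for flox 2 over wt 1 and -0.073 for wt 2 over flox 1, so the latter pair, which differs in number too, showed nearly no gradient. Between libraries of the same number it was -0.683 for flox 1 over wt 1 and -0.642 for flox 2 over wt 2. The last 2 ratios were both above 0 in 60 members, against 24.7% of all genes tested. When the well-counted members were divided into 3 sets by coding length, the median deviation from the gene's own mean in the shortest set (75 to 405 nt, 25 genes) was -0.30 in wt 1, -0.09 in flox 1, 0.08 in wt 2 and 0.28 in flox 2 on the log2 scale. In the longest set (582 to 1257 nt, 24 genes) it was -0.11, -0.09, 0.07 and 0.12. The short genes spread the 4 libraries evenly, and the long genes put them in 2 pairs by number. RNA quality was not measured in the files, and its part in this gradient was not tested.

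**Figure D4:**
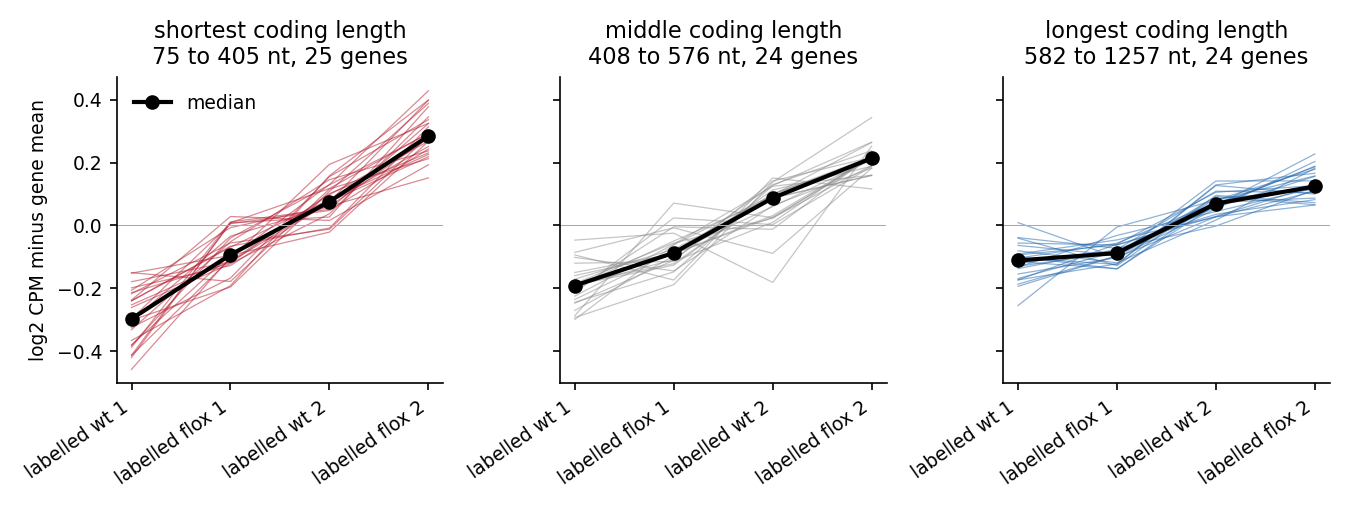
Log2 CPM minus the gene's mean over the 4 libraries, in 3 panels for the shortest, middle and longest coding lengths among the 73 well-counted ribosomal protein genes. Thin lines are genes and the black line is the median, which runs from -0.30 to 0.28 in the shortest set and from -0.11 to 0.12 in the longest.

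Members with and without a TOP tract at the annotated start overlapped widely. The 13 members with a tract had a median log2 fold change of 0.33 and a range from -0.40 to 0.55; the 43 with an entry and no tract had 0.25 and a range from -0.28 to 0.56. The median coding length was 390 nt in the first set and 453 nt in the second. Of the 2 tract genes shown above with small values, Rps6 had 0.20 and Rpl15 had 0.12 (SE 0.08), and of those with large values, Rps15a had 0.50 (SE 0.13).

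The comparison by genotype label asks what the labels state, floxed against wild type. In the same test 0 of 76 members were called, against 1 gene of 13022 (0.00768%) in all, and 0 members had an unadjusted p under 0.05, against 1.98% of all genes. DESeq2 called 12 genes, none of them a member. The median log2 fold change of the members was 0.12, with 70 above 0, against 50.3% of all genes. In 6 members (7.89%) both libraries labelled flox lay above both labelled wt, and in 0 below, against 13.2% and 13.8% of all genes. The highest value was 0.53 (SE 0.65) for Rps27 and the lowest -0.06 (SE 0.16) for Rpl28, both with an edgeR adjusted p of 1.00. Leaving out wt 1 gave a median of -0.0001 and leaving out flox 2 one of -0.03, while it was 0.25 with wt 2 left out and 0.27 with flox 1 left out. Its direction thus rests on wt 1 and flox 2, the lowest and highest libraries for most members. Spearman's rho with coding length was -0.74 over 75 members, and the medians by length class ran from 0.23 at up to 300 nt to -0.03 at 901 to 1500 nt. With log2 mean CPM it was -0.58 over 76 members.

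Other genes of the ribosome and of its synthesis were read from lists. Of 7 tested genes that encode ribosomal or ribosome-bound proteins under other names, 0 were called between the numbers and the median log2 fold change was 0.18. Fau, a fusion that carries Rps30, had 79.4, 90.3, 93.2 and 106 CPM and a log2 fold change of 0.23 (SE 0.11). Rps3a1 had 452, 447, 500 and 517 CPM (0.18, SE 0.07). Rpl22l1 and Rpl7l1, given above, lay below all well-counted members. Among 20 other genes listed as TOP mRNAs, 0 were called and the median was 0.10. Of these, 18 (90%) were above 0, against 51.3% of all genes tested. The list holds elongation factors, initiation factors such as Eif3e and Eif4b, and other genes such as Vim and Cct4. Tracts at annotated starts are not given for this list. The 77 mitochondrial ribosomal proteins had a median of 0.08, with 56 above 0 and 0 called. Median coding length was 1146 nt in the list of other TOP mRNAs and 576 nt in the mitochondrial list, against 456 nt for the members.

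Genes that build ribosomes or start translation were nearer to the background. The median log2 fold change was 0.02 over 40 genes of ribosome biogenesis, 0.01 over 26 of RNA polymerases I and III and 0.02 over 30 initiation factors, with 0 called in each list. These genes are longer than the members: their median coding lengths were 1537.5, 1330.5 and 1219.5 nt, against 456 nt. The lists were not compared with members of equal length. The initiation factors Eif3e, Eif3f, Eif3h, Eif3k and Eif4b were placed in the list of other TOP mRNAs instead. Their log2 fold changes were 0.15, 0.22, 0.12, 0.09 and 0.07. Among 24 regulators of ribosomal protein synthesis 0 were called, 9 were above 0 and the median was -0.10. Myc, which drives transcription of ribosome genes, had 475, 388, 287 and 297 CPM and a log2 fold change of -0.56 (SE 0.11, edgeR adjusted p = 0.0780). Pdcd4, an inhibitor of the helicase eIF4A, had 153, 138, 219 and 186 CPM and a log2 fold change of 0.47 (SE 0.11, edgeR adjusted p = 0.121). In Myc the libraries numbered 2 lay below those numbered 1, and in Pdcd4 above. Among 12 genes of the response to free ribosomal proteins, a list that also holds the member Rps27l, 1 was called: Cdkn1a, the cell-cycle inhibitor p21, at 52.0, 61.6, 29.2 and 33.2 CPM, fell by 0.86 on the log2 scale (SE 0.14, edgeR adjusted p = 0.0389).

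Genes of other lists also differed between libraries, and their part in the ribosomal protein differences was not tested. Of 10 immediate early genes, 0 were above 0 between the numbers, and Nr4a1 and Egr2, induced by T cell receptor signals, fell by 1.09 and 0.80 on the log2 scale (edgeR adjusted p = 0.00158 and 0.0149). Of 8 regulatory T cell genes, 1 was called: Ctla4, an inhibitory receptor, fell by 0.85 (edgeR adjusted p = 0.0270). All 8 were detected, and Foxp3 lay at 93.8, 91.0, 104 and 104 CPM. The summed level of 12 heat shock genes was 5136 CPM in wt 1, 5827 in flox 1, 5046 in wt 2 and 13418 in flox 2. Without flox 2 the members' median between the numbers was 0.21.

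Markers of other cell types were also read. Among 5 CD8 T and natural killer markers, 1 was called: Klrb1c, at 22.6, 21.3, 44.9 and 68.5 CPM, was higher in the libraries numbered 2 (log2 fold change 1.37, SE 0.21, edgeR adjusted p = 0.0368). Cd8a, Cd8b1 and Prf1 had log2 fold changes of -0.45, -0.01 and 0.34 and Ncr1 had at most 3 counts, so the sums over the list, 54.6, 60.3, 83.6 and 101 CPM, follow Klrb1c. Sums of 7 myeloid markers were 11.7, 97.0, 58.8 and 56.3 CPM, of 6 epithelial markers 154, 342, 375 and 254 CPM, and of the B cell markers 268, 467, 427 and 408 CPM, most of it Cd74 (225, 387, 375 and 368 CPM). Csf1r, a defining myeloid marker, was at 0 counts in wt 1. The library labelled wt 1, lowest for most members, was also lowest for these 3 sums. Sums of plasma cell markers were 232, 252, 210 and 235 CPM, most of it Xbp1 (220, 234, 198 and 229 CPM). Of the other plasma cell markers, Sdc1 had 11.3, 15.6, 9.35 and 5.18 CPM and Mzb1 had 0.924, 1.88, 2.32 and 0.435 CPM. Sums of stromal markers were 75.4, 79.0, 83.8 and 64.9 CPM, most of it Pecam1 (74.3, 77.4, 82.7 and 63.9 CPM). The plasma cell and stromal sums thus follow Xbp1 and Pecam1. The 3 red cell markers were at 0 counts.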

How the data were processed

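The authors deposited raw counts per gene symbol and a filtered table of normalized values, a signal that is not whole; 74 of the 76 members are in the second table (not Rps27 and Rps4l), and no test was run on it. The tools named in the submitters' processing notes are TopHat2 (2.1.1), HTSeq (0.6.1) and edgeR (3.14), with build mm10. How strand and annotation were set is not given in the sources used here. Per the labels' protocols, libraries were made from low-input RNA with an mRNA kit of Clontech. The 5 summary rows were left out of library sizes; they held 66.6% to 67.2% of column totals.

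All tests on counts used edgeR 4.0.16 under R 4.3.3 (filterByExpr, TMM, robust glmQLFit, glmQLFTest, Benjamini-Hochberg adjustment, threshold 0.05) over all genes. The standard error is the log2 fold change over the root of F. Samples were grouped by genotype and by replicate number, both from the titles; a separate replicate field of the labels disagrees with the titles and was not used. Members, the 19 gene lists and the comparisons were chosen with earlier results of these data known. Genes named were Maf, the 8 members highest per kb, members with paralogs or known roles, the extremes of each comparison and up to 4 of each list by smallest p, of which some are not reported here. Rpl15, Rps15a, Rps23, Rpl34 and Rpl29 were chosen after their values were seen. Lengths come from GENCODE M21 (same build, 94.4% of symbols matched), as the median over principal coding transcripts. Transcript length was used first and replaced by coding length after its results were seen, and both are given. The length trend was a loess of span 0.5. Alternatives were other scalings and filters, DESeq2 1.42.0, limma-voom (limma 3.58.1), blocks, pseudogene rows added to members, and leaving out each library. The tests were also run on simulated counts, drawn for each gene on its own with the spread fitted to these data. Such counts hold no shift shared across a library or tied to length, so they cannot show how the tests fare with one. The outcome is not reported here.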

Additional observations from a re-analysis of the deposited data

How the results depend on the processing

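Between the libraries numbered 2 and 1, the members' median log2 fold change stayed above 0 under every alternative run, from 0.16 with the transcript length trend removed to 0.34 without the library labelled wt 2. Members called were 0 except 5 without a filter on low counts (589 genes, 3.17% of 18575), 3 with DESeq2 (640 genes, 4.91% of 13022) and 3 without wt 2 (525 genes, 3.88% of 13530; Rps15a, Rps18 and Rps23). Leaving out 1 library gave 0 to 3 members and 46 to 525 genes called: 46 without wt 1, 116 without flox 1 and 504 without flox 2. In these fits the lone library of a group is assumed to vary like the other group. With library totals only, the median of all genes moved to 0.06 and that of the members to 0.31. With 1 library left out, Rps27 ran from -1.3193 (without flox 2) to 0.1579 (without wt 2) and Rpl21 from -0.0407 (without flox 2) to 0.2322 (without wt 2).

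By label, genes called were 2 without a filter, 12 with DESeq2, 0 with limma-voom, 0 with either length trend removed and 0 to 0 when 1 library was left out; members called were 0 throughout. The members' median ran from -0.0315 (without flox 2) through -1e-04 (without wt 1) and 0.2521 (without wt 2) to 0.2707 (without flox 1). Rpl28 ran from -0.2059 (without flox 2) to 0.0775 (without wt 2) and 0.0848 (without flox 1). With the replicate block, 1 gene and 0 members were called and the median was 0.12; with the genotype label as a block between the numbers, 212 genes and 0 members were called. The labels do not say that a number pairs samples. Deviations of the 2 libraries numbered 1 from their label means correlated at 0.36 over 13022 genes. With 2 libraries a label, these deviations are set by the difference between the numbers, so the correlation cannot show whether a number pairs samples. A share over non-mitochondrial genes was not run, since 0 mitochondrial rows are in the table. Beyond fewer samples or genes tested, the cause of these shifts was not tested. How often differences of the size seen in single members would be called with 2 libraries a group is not reported here.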
